A study of Mus musculus with 24 samples.

Results

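S100a8, S100a9, Lcn2, Saa1, Saa3, Nos2, Duox2, Duoxa2 and Trem1 are 9 genes that stand for neutrophil alarmins, acute-phase proteins and the making of oxidants, and they were read as measures of colitis in mouse colon. Every array probe whose accession belonged to 1 of these genes was taken, which gave 10 probes for 8 of the 9 genes, among 56605 probes and 45616 gene names. Lcn2 and Trem1 had 2 probes each, the other 6 genes had 1, and no probe could be assigned to Duox2. The colon RNA came from C57BL/6J mice, 7 weeks old on arrival, of which the males (M) and the females (F) had sham surgery and a further set of females was ovariectomized (F(OVX)). Each of these was fed a diet with 10 kcal% fat (low-fat diet, LFD) or with 45 kcal% fat (high-fat diet, HFD) for 14 weeks, which made 6 groups of 4 arrays, 1 mouse per array. All 24 mice, those on LFD included, had received the colon carcinogen azoxymethane (AOM) at 10 mg/kg, then DSS (dextran sulfate sodium), an agent that injures the colon lining, at 1.5% in 3 cycles, and were sacrificed 75 days after AOM, so there was no uninflamed control.

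S100A8 and S100A9 pair to form calprotectin, a calcium- and metal-binding protein that neutrophils and other myeloid cells store in quantity and release as an alarm signal. Lipocalin-2 (Lcn2) withholds iron from bacteria by binding their siderophores, and serum amyloid A proteins (Saa1, Saa3) are acute-phase lipid carriers that the gut epithelium makes upon contact with microbes. NOS2 makes nitric oxide, DUOX2 makes hydrogen peroxide at the epithelial surface with the help of its maturation factor DUOXA2, and TREM-1 is a receptor that amplifies inflammatory signals in neutrophils and monocytes.

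The promoters of 5 genes are shown because S100a8 and S100a9 varied together on the arrays, because Saa1 and Saa3 did not, and because Duoxa2 followed Nos2. Each sequence holds the 250 bases before the RefSeq start of the gene in GRCm38.p6, read 5′ to 3′ toward the gene. The windows were chr3:90668821-90669070, plus strand (S100a8), chr3:90695722-90695971, minus strand (S100a9), chr7:46742981-46743230, minus strand (Saa1), chr7:46715677-46715926, minus strand (Saa3) and chr2:122298650-122298899, plus strand (Duoxa2). Capitals mark matches, on either strand, to 5 letter patterns. These were GGGNNNNNCC for NF-kB and TTGCNNAA for C/EBP, both families of factors that acute inflammation activates. For AP-1 the pattern was TGANTCA, for STAT factors TTCNNNGAA, and for the TATA box, which places the start of transcription, TATAAA.
S100a8: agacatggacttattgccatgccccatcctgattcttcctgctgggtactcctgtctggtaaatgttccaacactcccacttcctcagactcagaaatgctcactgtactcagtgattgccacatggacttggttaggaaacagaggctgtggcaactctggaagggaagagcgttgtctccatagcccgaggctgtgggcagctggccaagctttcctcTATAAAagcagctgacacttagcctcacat
S100a9: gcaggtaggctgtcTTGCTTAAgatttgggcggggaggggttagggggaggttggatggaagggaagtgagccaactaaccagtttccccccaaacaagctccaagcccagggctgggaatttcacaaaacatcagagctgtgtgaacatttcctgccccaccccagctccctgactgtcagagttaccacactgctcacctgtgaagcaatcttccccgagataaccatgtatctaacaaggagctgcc
Saa1: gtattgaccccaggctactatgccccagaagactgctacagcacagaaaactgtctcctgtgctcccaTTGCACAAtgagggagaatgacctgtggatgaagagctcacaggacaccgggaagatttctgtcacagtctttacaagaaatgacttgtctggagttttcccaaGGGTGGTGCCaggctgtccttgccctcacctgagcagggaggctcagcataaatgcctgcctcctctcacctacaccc
Saa3: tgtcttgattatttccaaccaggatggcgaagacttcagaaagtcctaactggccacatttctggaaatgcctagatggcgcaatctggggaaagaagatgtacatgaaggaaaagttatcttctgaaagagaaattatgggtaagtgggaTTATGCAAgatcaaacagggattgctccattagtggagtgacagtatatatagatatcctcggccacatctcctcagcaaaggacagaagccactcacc
Duoxa2: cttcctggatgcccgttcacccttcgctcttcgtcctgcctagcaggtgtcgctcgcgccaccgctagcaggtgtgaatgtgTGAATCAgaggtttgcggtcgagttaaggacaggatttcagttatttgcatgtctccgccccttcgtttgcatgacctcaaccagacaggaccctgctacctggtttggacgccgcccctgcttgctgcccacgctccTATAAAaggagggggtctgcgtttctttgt

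The C/EBP pattern was found in S100a9 (TTGCTTAA, 236 to 229 bases before the start, -236 to -229), in Saa1 (TTGCACAA, -182 to -175), in Saa3 (TTATGCAA, on the opposite strand, -99 to -92) and in Lcn2 (TTGCTCAA, -216 to -209). It was thus in 4 of the 8 promoters that could be read, against 9.56% of 32851 mouse promoter windows of the same length. The NF-kB pattern was in 2 of 8, Lcn2 (GGACTACCCC, -102 to -93) and Saa1 (GGGTGGTGCC, -78 to -69), against 45.8% of all windows. A TATA box lay at -30 to -25 in both S100a8 and Duoxa2, 2 of 8 against 12.4%, the AP-1 pattern was in Duoxa2 alone (TGAATCA, -168 to -162, 1 of 8 against 6.75%), and the STAT pattern in Trem1 alone (TTCAGAGAA, -171 to -163, 1 of 8 against 7.02%). No match overlapped another, and none was found in the window of Duox2. These are matches of letters and not shown to be binding sites. S100a8 and S100a9 start 26650 bases apart on opposite strands, Saa1 and Saa3 start 27304 bases apart on the same strand, and Duox2 and Duoxa2 lie head to head with their starts 673 bases apart.

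3 facts about the arrays touch the values that follow. Each sex or surgery was hybridized on a slide of its own, where row 1 held the LFD arrays and row 2 the HFD arrays, so that sex or surgery cannot be told apart from slide, nor diet from slide row. Hoxb13, a gene of the most distal colon, had a log2 signal of 2.18 on M + LFD replicate 1, 5.05 on M + LFD replicate 2 and at least 12.6 on each of the other 22, so results in males are also given without those 2 arrays. The mean of 6 listed posterior Hox genes also varied among the other 22, from 5.42 on F(OVX) + HFD replicate 3 to 9.50 on M + HFD replicate 1. It was 9.32 on F + HFD replicate 3 and 9.19 on F + LFD replicate 3. On F(OVX) + LFD replicates 2 and 4 it was 8.68 and 8.26. No result is given with these arrays left out as a set, so the female results carry this limit too. Neutrophil markers were sparse: of 19 listed genes 18 had a probe, 4 were well above background on all 24 arrays and 10 on fewer than 12. Cxcr2, the chemokine receptor of mature neutrophils, and the granule gene Ngp were well above background on no array, and Ly6g had no matched probe. Few direct measures of neutrophils were thus at hand. Csf3r, the receptor for the neutrophil growth factor G-CSF, read between 14.2 and 15.6 on all 24 arrays. With Cxcr2 and Ngp detected on none, this high and even Csf3r signal is not shown to come from neutrophils. All 8 colon epithelium markers were well above background on every array. In whole tissue, fewer cells of a type and less RNA per cell cannot be told apart. All values below are log2 processed signals after quantile normalization, and levels are compared between arrays within a probe and not between probes. A gene was called at a fold change of at least 1.5 with an unadjusted p under 0.05 by limma. At that rule 4.24% of 20516 tested genes were called in males, 1.2% of 22085 in females and 2.18% of 19211 in ovariectomized females, and 0% passed an adjusted p of 0.05 in any diet comparison, so no call below holds after adjustment. Adjusted p-values of the called genes named below were between 0.798 and 0.9998 in the 3 diet comparisons, so the text says which genes were called and gives exact permutation p-values for the members.

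**Figure D1:**
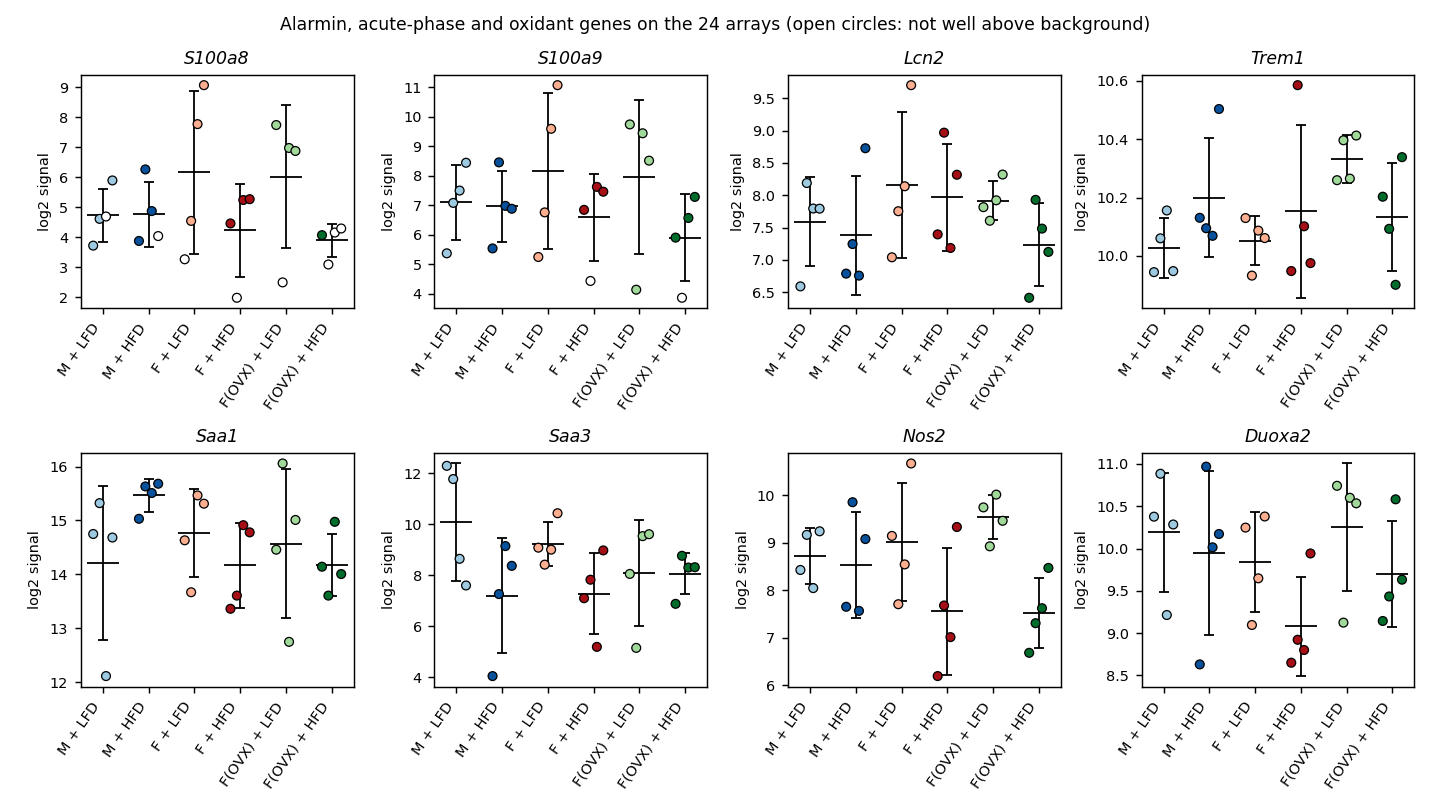
Log2 signal of 8 genes (vertical axes) in the 6 groups (horizontal axes), 1 circle per array, with the group mean and SD as bars and open circles for spots not well above background. S100a8 and S100a9 spread widely in F + LFD and F(OVX) + LFD, the 4 F(OVX) + HFD arrays lie below all 4 F(OVX) + LFD arrays for Nos2, and Trem1 stays between 9.90 and 10.6.

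S100a8 and S100a9 varied widely within the groups, and their means were lower on HFD in females and in ovariectomized females without passing the test. S100a9 read 5.25, 6.76, 9.59 and 11.06 in F + LFD and 6.85, 4.44, 7.62 and 7.46 in F + HFD. In F(OVX) + LFD it read 9.74, 4.14, 9.44 and 8.51, and in F(OVX) + HFD 5.91, 3.87, 6.57 and 7.28. In M + LFD the values were 5.37, 7.08, 7.50 and 8.44, and in M + HFD 5.54, 8.45, 6.98 and 6.88. In both sets of females all 4 HFD arrays lay below the LFD mean, but the groups overlapped because 1 or 2 LFD arrays were low. The HFD minus LFD difference was -1.57 in females (SE 1.28, exact permutation p = 0.371), -2.05 in ovariectomized females (SE 1.23, exact p = 0.2) and -0.13 in males (SE 0.74, exact p = 0.8286), and none was called. The 95% intervals, -4.51 to 1.37 in females and -4.84 to 0.74 in ovariectomized females, were wide. A gene was tested only if all 4 arrays of at least 1 group were well above background. In both sets of females S100a9 met this only on LFD, where its mean was higher. On HFD it was well above background on 3 of 4 arrays in each set. Its direction in females is therefore not independent of this filter.

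S100a8 was near the detection limit. It was well above background on 16 of 24 arrays and never on all 4 of a group, so the filter left it out of the tests. Its values were 3.27, 4.55, 7.78 and 9.07 in F + LFD and 4.47, 1.99, 5.25 and 5.27 in F + HFD. They were 7.75, 2.50, 6.98 and 6.88 in F(OVX) + LFD and 4.07, 3.10, 4.16 and 4.30 in F(OVX) + HFD, where 1 of the 4 was well above background. In males the mean was 4.73 ± 0.89 (SD, n = 4) on LFD and 4.77 ± 1.09 on HFD. The differences of means were -1.92 in females (exact permutation p = 0.257), -2.12 in ovariectomized females (exact p = 0.143) and 0.03 in males (exact p = 1.0), where the smallest p that 70 assignments allow is 0.0286. The highest array for S100a8 and for S100a9 was F + LFD replicate 4, which was also the highest for Nos2 and for both Lcn2 probes. F(OVX) + LFD replicate 2 was the lowest of its group for both S100 genes. Without that array, which held the lowest values, S100a9 was called in ovariectomized females (-3.32, limma adjusted p = 0.991, 3 arrays against 4). There too it was tested only through LFD, so this direction carries the limit of the filter. The mean log2 signal of the neutrophil marker list ran from 5.27 to 6.54 in F + LFD and 5.11 to 5.81 in F + HFD, and from 5.45 to 6.72 in F(OVX) + LFD and 5.07 to 5.83 in F(OVX) + HFD. The 2 F + LFD arrays with the highest S100 values, replicates 3 and 4, also stood above replicates 1 and 2 for the mean of the macrophage and monocyte markers (11.5 and 10.7 against 10.001 and 9.74) and of the lymphocyte and plasma cell markers (10.8 and 11.1 against 9.06 and 8.96). The part of these cells in the S100 values was not tested.

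Of 13 other S100 genes listed, 8 were tested in males, all of them higher on HFD, and S100a14 (1.54) and S100a16 (0.96), both made by epithelium, were called. Neither was called without the 2 arrays low in Hoxb13 (0.56 and 0.25). In females 7 of 10 were higher, with S100b, a gene of enteric glia, called (1.004). In ovariectomized females 8 of 9 were lower, with S100g, the epithelial calcium-binding protein calbindin-D9k, called (-3.40), though it was well above background on 2 of the 4 F(OVX) + HFD arrays. S100g was tested there only through F(OVX) + LFD, where it was higher, so its direction is not independent of the filter. Over the tested S100 genes the difference had a median of 0.22 in males, of 0.09 in females and of -0.15 after ovariectomy, against 0.01, -0.00 and 0.01 over all genes tested.

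Lcn2 was called in no diet comparison on its brighter probe, which was well above background on all 24 arrays and ran from 6.41 to 9.70 with a median of 7.77. It read 7.82, 7.60, 7.92 and 8.32 in F(OVX) + LFD and 6.41, 7.93, 7.48 and 7.12 in F(OVX) + HFD, so 3 of the 4 HFD arrays lay below every LFD array. The difference there was -0.68, a 1.6-fold decrease (SE 0.31, 95% interval -1.38 to 0.03, exact permutation p = 0.114), and it was called under 75th percentile scaling (-0.69). It was -0.21 in males (exact p = 0.714) and -0.19 in females (exact p = 0.771). The direction in females turned when F + LFD replicate 4 (0.32) or F + HFD replicate 3 (0.07) was left out. The dimmer Lcn2 probe was well above background on 11 arrays. It read 4.76, 4.81, 4.57 and 4.81 in F(OVX) + LFD and 3.65, 4.01, 3.49 and 2.05 in F(OVX) + HFD, and these groups did not overlap (exact permutation p = 0.0286). Since it was not well above background on any F(OVX) + HFD array, and the LFD mean of 4.74 was no higher than the detection limit of those arrays (mean 4.78), no fold change is given for it.

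The 2 Trem1 probes disagreed. The brighter ran from 9.90 to 10.6 over all 24 arrays with a median of 10.1, and its pooled SD within groups was 0.18. The other, which carries the same accession, was not well above background on any array (2.08 to 3.25). On the brighter probe the diet differences were 0.17 in males (SE 0.15, exact permutation p = 0.171), 0.10 in females (SE 0.16, exact p = 0.714) and -0.20 in ovariectomized females (SE 0.14, exact p = 0.114), and their 95% intervals lay between -0.52 and 0.50. Among the 16 receptors for alarmins and partners of TREM-1, 12 were tested in males and Tlr2, a receptor for bacterial lipopeptides, was called lower on HFD (-0.84), though not without the 2 arrays low in Hoxb13 (-0.35). In ovariectomized females 9 of 12 were lower and Tyrobp, the adaptor DAP12 through which TREM-1 signals, was called (-0.63), with groups that did not overlap (exact p = 0.0286). In females 9 of 13 were lower and none was called.

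The 2 serum amyloid A genes differed in opposite directions in males, and neither passed the test. Saa3, which macrophages, adipocytes and epithelium make, read 12.29, 11.77, 8.64 and 7.59 in M + LFD and 4.04, 7.26, 9.14 and 8.36 in M + HFD. The pair of highest values were the arrays low in Hoxb13, and the lowest of all 24 arrays was M + HFD replicate 1. The difference was -2.87 (SE 1.35, exact permutation p = 0.171). It was -0.92 without the 2 arrays low in Hoxb13 and -1.82 without M + HFD replicate 1. Saa1 read 14.75, 15.32, 12.12 and 14.68 in M + LFD and 15.03, 15.63, 15.51 and 15.68 in M + HFD, so that all 4 HFD arrays lay above the LFD mean. That difference was 1.24 (SE 0.62, exact p = 0.0571). It was 0.54 and not called without M + LFD replicate 3, its lowest array, and 2.06 and called without the 2 arrays low in Hoxb13.

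In females Saa3 fell on HFD. It read 9.08, 8.41, 8.999 and 10.43 in F + LFD and 7.09, 7.82, 5.18 and 8.97 in F + HFD, with 3 of the 4 HFD arrays below every LFD array. The difference of -1.96 was a 3.898-fold decrease (SE 0.77, limma adjusted p = 0.992, exact permutation p = 0.0571). The call was lost when any of F + LFD replicates 1, 3 and 4 or F + HFD replicates 1 and 3 was left out, by the methods' t-test and in the fit of all 24 arrays. In ovariectomized females Saa3 read 8.05, 5.14, 9.53 and 9.61 on LFD and 6.87, 8.76, 8.30 and 8.31 on HFD, a difference of -0.02 (SE 0.93, exact p = 1.0). Saa1 differed by -0.60 in females (SE 0.49, exact p = 0.286) and -0.39 in ovariectomized females (SE 0.62, exact p = 0.6). F(OVX) + LFD replicate 2 held the highest Saa1 of all 24 arrays (16.06) and the lowest Saa3 of its group (5.14). This array, M + HFD replicate 1 and F + HFD replicate 3, all with high posterior Hox means, each held the lowest Saa3 of its group. F + LFD replicate 3 and F(OVX) + LFD replicate 4, also high in these Hox genes, did not. The part of the stretch of colon sampled in the Saa3 values was not tested.

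**Figure D2:**
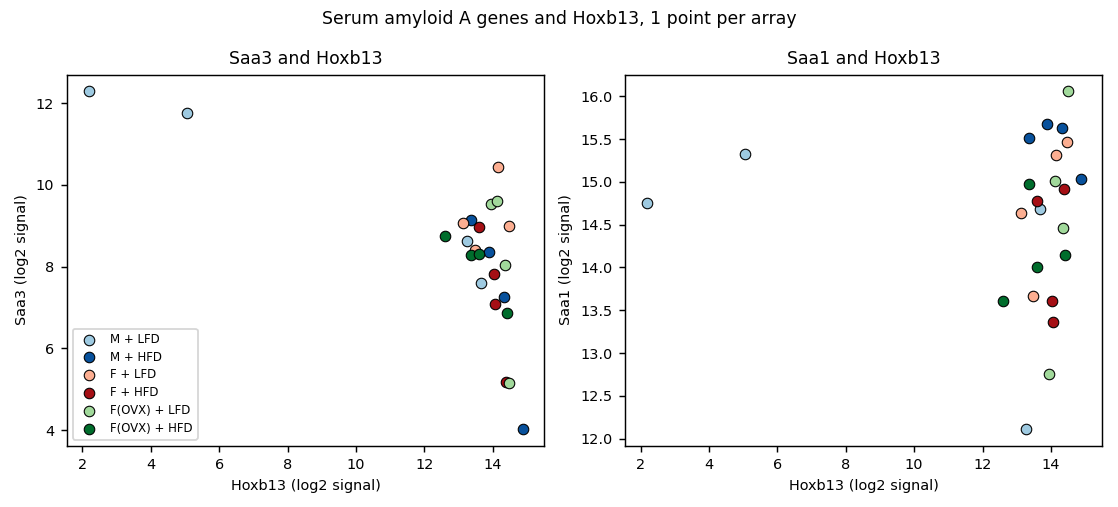
Log2 signal of Saa3 (left) and Saa1 (right) against that of Hoxb13, 1 point per array, colored by group. The 2 M + LFD arrays with Hoxb13 at 2.18 and 5.05 hold the 2 highest Saa3 values, 12.29 and 11.77, and Saa1 values of 14.75 and 15.32 within the range of the other arrays.

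Saa1 was followed most closely by Saa2, the neighboring and nearly identical acute-phase gene (r = 0.99 over the 24 arrays), so it is uncertain which of the 2 transcripts each probe reads. Saa2 differed by 1.096 in males (exact permutation p = 0.0857), -0.46 in females (exact p = 0.343) and -0.37 in ovariectomized females (exact p = 0.6), and was called in males without the 2 arrays low in Hoxb13 (1.88). Over the 17 other acute-phase and antimicrobial genes, 15 were tested. In males Reg3b (-6.04, exact p = 0.0857) and Reg3g (-4.25, exact p = 0.0571), which encode epithelial lectins that act on gut bacteria, were called lower on HFD, and 9 of the 15 were higher. Reg3b was well above background on 2 of the 4 M + HFD arrays, so the size of its difference is uncertain. It was tested in males only through M + LFD, where it was higher, so its direction is not independent of the filter. These differences were -4.52 and -3.57 without the 2 arrays low in Hoxb13, and neither was then called. In females 14 of 15 and in ovariectomized females 11 of 15 were lower with none called. Pglyrp1, a peptidoglycan-binding protein of neutrophil granules, differed by 0.11 in males, -0.05 in females and -0.43 in ovariectomized females.

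Nos2 fell on HFD in ovariectomized females. In F(OVX) + LFD it read 9.74, 8.92, 10.01 and 9.46, and in F(OVX) + HFD 6.68, 7.30, 7.62 and 8.47, so that all 4 HFD arrays lay below all 4 LFD arrays. The difference of -2.02 was a 4.04-fold decrease (SE 0.38, 95% interval -2.87 to -1.16, limma adjusted p = 0.9998, exact permutation p = 0.0286). Nos2 was 1 of 7 tested members whose groups did not overlap in ovariectomized females, where 2.24% of all tested genes did not overlap. None of the 7 was so in males or in females, against 2.59% and 1.88% of all genes. The call held with each of the 8 arrays left out, with differences between -2.33 and -1.74, and under every other setting tried. In females Nos2 read 9.14, 7.70, 8.54 and 10.66 on LFD and 6.19, 7.68, 7.01 and 9.33 on HFD, a difference of -1.46 (SE 0.78, exact p = 0.2). Here 3 of the 4 HFD arrays lay below every LFD array and the fourth, F + HFD replicate 4, did not. In males it read 8.42, 9.16, 8.04 and 9.24 on LFD and 7.65, 9.85, 7.56 and 9.07 on HFD, a difference of -0.18 (SE 0.54, exact p = 0.771). The male difference was higher than that in ovariectomized females by 1.83 (SE 0.92) and than that in females by 1.28 (SE 0.92). The difference in ovariectomized females minus that in females was -0.55 (SE 0.92). None of these contrasts was called, so the decrease was not shown to differ between the sexes or with ovariectomy. All 9 tested macrophage and monocyte markers, cells that can make NOS2, were lower on HFD in ovariectomized females, 1 of them called (Mrc1, -0.67). The mean log2 signal of that list ran from 9.96 to 10.4 on LFD and from 9.51 to 9.99 on HFD. In intact females, where Nos2 was not called, all 10 tested markers of the list were lower too, 1 of them called. The median difference was -0.449 there and -0.453 in ovariectomized females, while in males 9 of 10 were higher. The part of these cells in the Nos2 value was not tested.

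Duoxa2 ranged from 8.63 to 10.97 and was called in no group on all 8 arrays. In F + LFD it read 10.25, 9.10, 9.65 and 10.38 and in F + HFD 8.65, 8.92, 8.80 and 9.94, a difference of -0.76 (SE 0.37, exact permutation p = 0.114) with 3 of the 4 HFD arrays below every LFD array. In ovariectomized females it was -0.55 (SE 0.42, exact p = 0.4), with F(OVX) + LFD replicate 2 at 9.12 and the other LFD arrays between 10.53 and 10.7. Without that array the difference was -0.93 and was called. In males it was -0.24 (SE 0.51, exact p = 0.657) and 0.20 without the 2 arrays low in Hoxb13. Duoxa1, the maturation factor of the related oxidase DUOX1, was well above background on 13 arrays and Duox1 on 6. Nox1, the main NADPH oxidase of colon epithelium, differed by -0.18, 0.02 and 0.52 in males, females and ovariectomized females, and Cybb, the catalytic subunit of the phagocyte oxidase, by -0.07, -0.29 and -0.30. None of the 14 tested of 20 other oxidant-producing genes was called in any of the 3 comparisons, and 7, 11 and 9 of them were lower on HFD in males, females and ovariectomized females. Of 19 oxidant-removing enzymes, all tested, Gclc (-0.74) and Gclm (-0.65), the subunits of the ligase that starts glutathione synthesis, were called lower in males. They were not called without the 2 arrays low in Hoxb13 (-0.35 and -0.36). Gpx3, a secreted glutathione peroxidase, was called lower in ovariectomized females (-0.61).

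In females every same-numbered pair of arrays correlated, though this does not show that the numbers pair the mice. With the number as a block 4 of 7 members were called lower on HFD in place of 1. These were Saa3, Nos2, Duoxa2 and Saa1, each with the difference given above and an adjusted p of 0.665, where the block raised the share called over all genes from 1.2% to 2.66%. In ovariectomized females the arrays of replicate 2 did not correlate (r = -0.09), so the number was not taken to pair the arrays. With the block S100a9 was called there besides Nos2, where the share called over all genes rose from 2.18% to 2.87%. S100a9 was tested in ovariectomized females only through the LFD group, where it was higher.

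**Figure D3:**
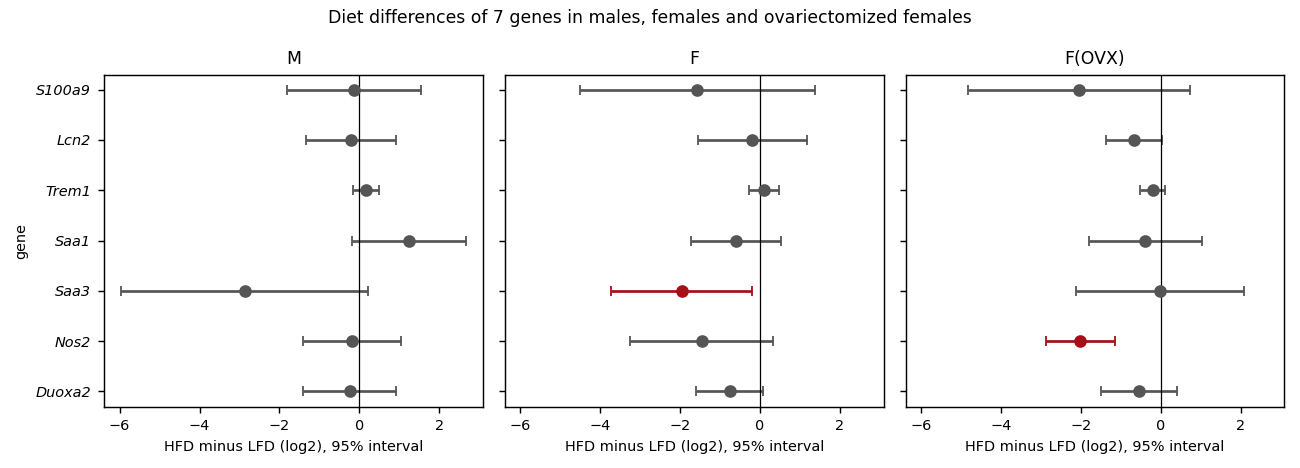
HFD minus LFD difference in log2 signal (horizontal axes) of 7 genes (vertical axis) in males, females and ovariectomized females, with 95% intervals of the limma fit on 8 arrays each and called genes in red. Saa3 in females (-1.96) and Nos2 in ovariectomized females (-2.02) are the called genes, and the intervals of S100a9 and Saa3 are wide.

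Set side by side, 0 of 7 tested members were called in males, 1 of 7 in females (Saa3) and 1 of 7 in ovariectomized females (Nos2), all downward. Over all tested genes 4.24%, 1.2% and 2.18% were called. In males 0 of 7 also had an unadjusted limma p under 0.05, which 1248 of 20516 tested genes had. Means were lower on HFD for 5 of 7 in males, 6 of 7 in females and 7 of 7 in ovariectomized females, with median differences of -0.18, -0.76 and -0.55. Trem1 is counted among the 7 with its brighter probe (-0.20 in ovariectomized females), though its 2 probes disagreed. S100a9 is counted too, though in both sets of females it was tested only through the LFD group, where it was higher. Over all tested genes the medians were 0.01, -0.00 and 0.01. Averaged over the 3 diet comparisons in 1 fit of 24 arrays, Nos2 (-1.22, SE 0.38) and Saa3 (-1.62, SE 0.68) were called, 2 of 7 where 0.782% of all genes were, each with an adjusted p of 0.985. Saa3 was no longer called on average without M + LFD replicate 1 or 2, M + HFD replicate 1 or F + HFD replicate 3, nor without the 2 arrays low in Hoxb13 together (-0.97). No member was called for a difference between diet effects, neither of males and females (2.94% of all genes called), of males and ovariectomized females (6.13%) nor of ovariectomized females and females (1.47%). In these limma contrasts 0 of 7 also had an unadjusted p under 0.05, which 782, 1641 and 465 of 22383 genes had. The nearest were Saa1 in males against females (1.85, SE 0.92) and Nos2 in males against ovariectomized females. Over the 6 groups, 0 of 7 members passed limma's F-test at an adjusted p of 0.05, as 0.876% of all genes did, and Nos2 alone had an unadjusted p under 0.05 (adjusted p = 0.359). In the order of group means, the ranges of neighboring groups overlapped for all 10 probes.

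Of 10 chemokines and growth factors for neutrophils, 4 were tested in males, 5 in females and 3 in ovariectomized females. Cxcl1, a chemokine that attracts neutrophils, was called higher on HFD in males (1.498, SE 0.61, exact permutation p = 0.0857) and lower in females (-1.35, SE 0.48, exact p = 0.0571). The diet effect in males exceeded that in females by 2.85 (SE 0.87, adjusted p = 0.976) and that in ovariectomized females by 3.05 (adjusted p = 0.573), and both contrasts were called. Cxcl1 was well above background on 14 of 24 arrays, namely 2 of 4 in M + LFD, 4 in M + HFD, 4 in F + LFD, 1 in F + HFD, 2 in F(OVX) + LFD and 1 in F(OVX) + HFD, so the sizes of these differences rest partly on signals near background. It was tested in males only through M + HFD and in females only through F + LFD, the groups where it was higher. The direction of these calls is therefore not independent of the filter, and the contrasts of diet effects carry the same limit. With the 2 arrays low in Hoxb13 left out, the male difference was 0.71 and not called, and the excess over females was 2.07 and called. Cxcl5, a chemokine of epithelium, was called lower in ovariectomized females (-2.35, exact permutation p = 0.114). It differed by 1.98 in males (exact p = 0.257) and by 0.01 there without the 2 arrays low in Hoxb13. Cxcl2 was well above background on 1 array, and Cxcl3 and Csf3 on none.

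A list of 22 genes held cytokines that induce these members and genes of their signaling, inhibitors such as Socs3 included. Of these, 15 were tested in each diet comparison, and 12 were lower on HFD in females and 13 in ovariectomized females against 7 in males. Nfkbiz, which encodes an inducible cofactor of NF-kB, was called lower in females (-0.82, SE 0.23, exact permutation p = 0.0286) with groups that did not overlap, in ovariectomized females (-0.88, SE 0.30, exact p = 0.0571) and on average (-0.78, SE 0.21). These Nfkbiz values come from its brighter probe. A dimmer Nfkbiz probe was well above background on 23 arrays, and its diet differences are not given here. Socs3, a feedback inhibitor of cytokine receptors, fell in females (-0.92), and Cebpd, a C/EBP factor of the acute-phase response, fell in ovariectomized females (-0.76), in both cases with groups that did not overlap (exact p = 0.0286). In males Ifng, a cytokine of T and NK cells, was called lower (-1.34), though not without the 2 arrays low in Hoxb13 (-0.91). Il1b was called in none (0.10, -0.83 and -0.13 in males, females and ovariectomized females). With the replicate number as a block in females, Il1b and Cxcl5 (-1.76) were called as well. Il17a, Il17f, Il1a, Il23a and Il6 were well above background on no array and Il22 on 1, so their levels could not be compared.

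Across the 24 arrays 5 of 28 pairs of members were related at an adjusted p under 0.05 by both Pearson and Spearman permutation tests with 100000 resamples. S100a8 and S100a9 had r = 0.96 and rho = 0.97 (adjusted p = 0.00028 for both, the smallest the permutations allow), with r = 0.92, 0.997 and 0.96 within the male, female and ovariectomized slides and 0.95 without the 2 arrays farthest from the median of S100a8. Nos2 and Duoxa2 had r = 0.75 and rho = 0.73 (adjusted p = 0.0007 and 0.00168), with r = 0.78, 0.95 and 0.62 within the 3 slides and 0.72 without the 2 farthest arrays. Saa3 and Duoxa2 had r = 0.63 and rho = 0.55 (adjusted p = 0.00644 and 0.0345) and 0.57 without the 2 farthest. Nos2 was also related to S100a8 (r = 0.58, rho = 0.56, adjusted p = 0.0207 and 0.0345) and to S100a9 (r = 0.57, rho = 0.61, adjusted p = 0.0207 and 0.0202), with r between 0.49 and 0.71 within slides and 0.50 and 0.43 without the 2 farthest. For Saa1 and Saa3 no relation passed the test (r = -0.07, rho = 0.01, adjusted p = 0.825 and 0.986), with r = -0.03, 0.35 and -0.63 within the slides. When the 2 arrays low in Hoxb13 were left out, the r of these pairs was 0.97 for S100a8 and S100a9, 0.76 for Nos2 and Duoxa2 and 0.59 for Saa3 and Duoxa2.

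**Figure D4:**
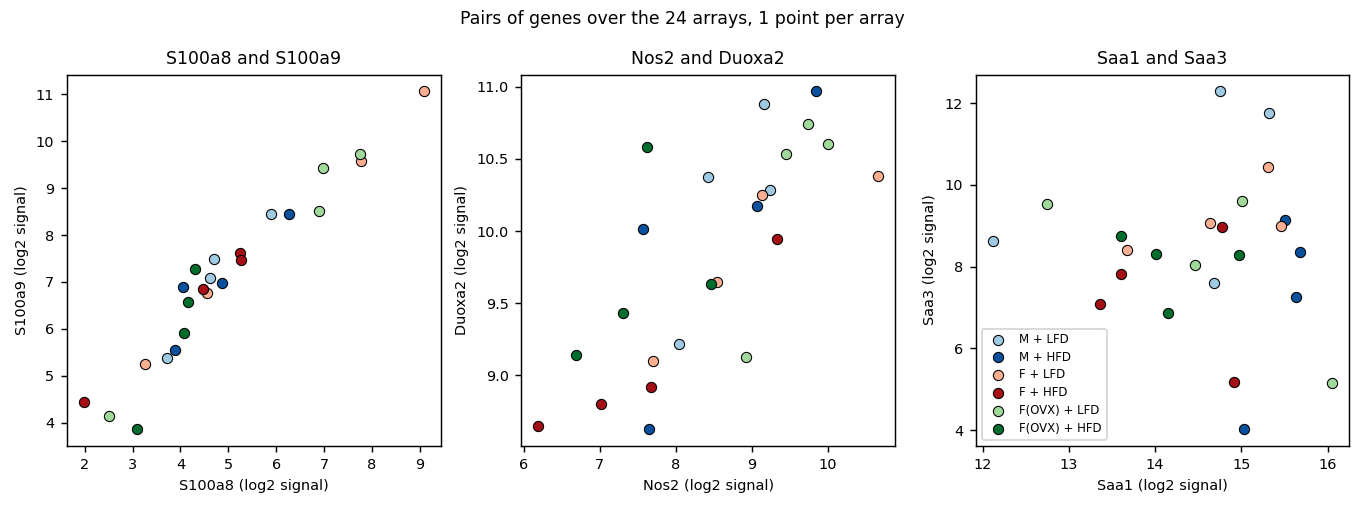
Log2 signals of S100a8 and S100a9 (left), Nos2 and Duoxa2 (middle) and Saa1 and Saa3 (right), 1 point per array, colored by group. The left pair lies along a line (r = 0.96), the middle pair more loosely (r = 0.75), and the right pair is scattered (r = -0.07).

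Among 14408 genes well above background on at least 12 arrays, those most like each member in Pearson r over the 24 arrays were as follows, as a description. After each other, S100a8 and S100a9 were closest to Ccdc88b (0.87 for both), a gene of leukocytes, and then S100a8 to Lcp2 (0.82) and S100a9 to Rinl (0.83). Nos2 was closest to Duoxa2 (0.75), Ubd (0.72) and Casp4 (0.71), and Duoxa2 to Trim40 (0.84), Nos2 and Gm14137 (0.72). Saa3 was closest to Exoc3l4 (0.85), Samd5 (0.84) and Aldh3b1 (0.82), and Saa1, after Saa2, to Cyp2d9 (0.92) and Cyp2d12 (0.88). Lcn2 was closest to Eva1a (0.77), Fabp4 (0.72) and Tspan4 (0.71), and Trem1 to Mipol1 (0.69), C2cd4d (0.68) and Zfp707 (0.68). All arrays of a slide share their scan, and arrays of a group their diet.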

How the data were processed

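Colon RNA of 24 mice was hybridized to 1-color Agilent mouse arrays. The authors read spots with Agilent Feature Extraction (11.0.1.1), and the deposited intensities are linear, background-subtracted and detrended within each array, with no normalization between arrays. Median spot and local background intensities were also deposited, with flags per the file headers (other values, 0 or 1) for spots well above background or outlying. Here control spots were left out, outlier spots set to missing, values log2-transformed, averaged per probe and quantile-normalized over 24 arrays. Probes were named by matching accessions to a gene table of GRCm38.p6 (58.3% of probes matched).

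Each diet comparison used its own 8 arrays and the brightest probe of a gene, provided that all 4 spots of at least 1 group were flagged well above background, and was fitted in R 4.3.3 by limma 3.58.1 (lmFit, eBayes) with Benjamini-Hochberg adjustment. Differences between diet effects, their average and the F-test over 6 groups used 1 fit of 24 arrays. Single probes were compared by exact two-sided permutation over 70 assignments (Python 3.11.15, scipy 1.17.1). In simulated data limma called 96.5%, 98% and 98.5% of 200 genes changed 4-fold in males, females and ovariectomized females. These genes were drawn at random from all tested genes and kept their own SD. The shares therefore do not hold for members as variable as S100a9 and Saa3 (pooled SD within groups 1.875 and 1.763). In the data S100a9 was not called at a 4.14-fold decrease in ovariectomized females. No coordinates of probes are given, since the array and the gene table use different assemblies.

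The members, the gene lists and the tests were chosen with earlier results of these data known, and 1 gene of a list is not reported here. Named genes were all probes of the members, 16 genes named in advance of these fits, and called genes of the lists, up to 4 per list and comparison. In females the deviations of same-numbered arrays correlated at r = 0.28, 0.45, 0.58 and 0.26, so the number, which is also the slide column, was used as a block. Arrays of different numbers were not compared in this way, so a pairing of the mice is not shown. Both female arrays of replicate 3 (r = 0.58) also had high posterior Hox means. The part of the stretch of colon in these correlations was not tested. Alternatives were another scaling (75th percentile), normexp background correction with an offset of 50, other filters on dim probes, every probe as a feature, the t-test of the methods, the replicate block, outlier spots kept and each array left out. On an array 40.5% to 61.9% of probes exceeded background by the flag, no spot was saturated, and precision is limited by how many arrays there were. The 75th percentile of the processed signal reached 669, but was 125 on F(OVX) + LFD replicate 3 and 157 on F + HFD replicate 2. On F(OVX) + LFD replicate 3 Nos2 was the highest of its group after normalization (10.01) and the lowest before it (323). The lowest S100a8 of all arrays was on F + HFD replicate 2. Whether the mice of a group came from separate cages or litters was not given in the sources used here, and the methods name 5 animals per group where the labels give 4.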

Additional observations from a re-analysis of the deposited data

Results flagged for a closer look

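Of 60 groups of 4 arrays (10 probes in 6 groups), 4 held an array far from the other 3, where chance alone gives about 1 in 20. F(OVX) + LFD replicate 2 was low for S100a8 (2.50, nearest 6.88) and for Duoxa2 (9.12, nearest 10.53). F(OVX) + LFD replicate 3 was high for the dim Trem1 probe (3.25, nearest 2.26), which was not well above background there, and M + HFD replicate 4 for the bright Trem1 probe (10.504, nearest 10.13).

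Among genes named from the lists, limma contrasts of the diet effects passed the calling rule in these cases, with no adjusted p under 0.05. Cxcl1, Reg3b and S100g were near background on some of these arrays, so the sizes of their differences are uncertain. Cxcl1 passed the filter only through M + HFD and F + LFD, where it was high, so its direction is not independent of the filter. In ovariectomized females S100g passed it only through F(OVX) + LFD, and the same limit holds for its direction there. The effect in males minus that in females was 2.85 for Cxcl1, 3.74 for Cxcl5, 1.51 for S100a14, -0.75 for Gclc, -0.76 for Gclm and 5.36 for Hoxb13. The effect in males minus that in ovariectomized females was 3.05 for Cxcl1, 4.34 for Cxcl5, 1.09 for Cebpd, 1.75 for S100a14, 1.11 for S100a16, 6.13 for S100g, -7.29 for Reg3b, -4.60 for Reg3g, -0.72 for Gclc, -0.92 for Gclm and 6.30 for Hoxb13. Without the 2 arrays low in Hoxb13, the differences from females were called for Cxcl1 (2.07), and those from ovariectomized females for Cxcl1 (2.26), S100g (6.40), Gclm (-0.63) and Hoxb13 (1.38).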

How the results depend on the processing

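The number of members called changed with the settings as follows. In males it was 0, and it was 1 in 1 fit of all 24 arrays (Saa3), 1 without the 2 arrays low in Hoxb13 (Saa1) and 0 to 1 with an array left out. In females it was 1, 4 with the replicate block, 0 by the methods' t-test, and 0 to 3 with an array left out. In 1 fit of all 24 arrays it stayed 1, with Nos2 in place of Saa3. In ovariectomized females it was 1, 2 with 75th percentile scaling (Lcn2 added), 2 with normexp and 2 with the replicate block (S100a9 added in both), and 1 to 4 with an array left out. On average over the diets it was 2, 1 without the 2 arrays low in Hoxb13, 2 with the replicate block (Nos2 and S100a9 in place of Saa3), and 1 to 5 with an array left out. For differences between diet effects it was 0, with 0 to 2 for males against either set of females and 0 for ovariectomized females against females when an array was left out. Without the 2 arrays low in Hoxb13 it was 1 (Saa1) for males against either set, and with the replicate block 1 (Nos2) for males against ovariectomized females. In ovariectomized females the same-numbered pairs correlated at r = 0.33, -0.09, 0.33 and 0.25, near the lower female values except for replicate 2. Since not every pair correlated, the number was not taken to pair these arrays, and whether it does is uncertain. In males the pairs correlated at 0.01, -0.26, 0.01 and -0.03, so no pairing by number was seen. The cause of these changes was not tested.

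Of 813 values of single genes under alternatives, 26 changed sign, in 12 results, none of them called. Without the 2 arrays low in Hoxb13 Duoxa2 in males was 0.20 and the difference of Saa3 between males and females 1.05. With an array left out the ranges were -0.58 to 0.20 for Duoxa2, -0.62 to 0.14 for Nos2 and -0.71 to 0.34 for S100a9 in males, -0.57 to 0.32 for Lcn2 and -0.044 to 0.17 for Trem1 in females, and -0.99 to 0.11 for Saa1 and -1.002 to 0.49 for Saa3 in ovariectomized females. They were -0.15 to 0.25 for Saa1 and -0.024 to 0.0502 for Trem1 on average, -1.10 to 0.038 for Nos2 and -0.39 to 0.71 for Saa1 in ovariectomized females minus females, and -1.74 to 0.14 for Saa3 in males minus females. Counts over all genes in females were 264, 588 with the replicate block, 82 with normexp, 106 for probes well above background on all 24 arrays, 125 by the t-test and 629 with no filter, and in ovariectomized females 418, 269, 210 and 841 with normexp, the t-test and no filter. Low signal limits S100a8, Duox1, Cxcl1 and the second probes of Lcn2 and Trem1.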
